A study of Mus musculus with 8 samples.

Results

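Transcript levels of 10 adhesion G protein-coupled receptor genes were followed in mouse sciatic nerve: Gpr126, Gpr56, Bai1, Bai2, Bai3, Cd97, Lphn1, Lphn2, Eltd1 and Gpr124. They were chosen by symbol, as the table writes it, and all 10 of 10 were found among its 23356 genes. The current symbols of these genes are Adgrg6, Adgrg1, Adgrb1, Adgrb2, Adgrb3, Adgre5, Adgrl1, Adgrl2, Adgrl4 and Adgra2, in the same order.

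The nerves came from F1 mice of C57BL/6 and FVB/N on postnatal day 30. Each of 4 genotypes had 2 poly A selected libraries. Beside wild type (WT) these were Q215X/+, with 1 mutant allele, HA-NRG1 type III/+, which carries a neuregulin 1 type III transgene, and HA-NRG1 type III/+:Q215X/+, which carries both and is called the double. The sources used here do not give the promoter of the transgene or the number of mice behind a library. The spread behind each p-value is that between these libraries, and it may be technical. The column names of each genotype end in 0 and 1, here called set 0 and set 1. No label says that an ending means the same across genotypes, and the pairing was taken from the data.

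Adhesion G protein-coupled receptors carry a long extracellular region that binds matrix or cell surface proteins, and many are cleaved close to the membrane, which leaves a tethered peptide that can activate the receptor. In Schwann cells Gpr126 acts through cyclic AMP and is required for myelination, and Gpr56 takes part in radial sorting of axons. Neuregulin 1 type III is the axonal signal that sets how much myelin a Schwann cell makes.

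The values are FPKM (fragments scaled to transcript length and to the size of the library), which carry no counts, so the depth is unknown. Total FPKM was 443733 to 530901 per library, and steps between low values gave relative depths of 0.728 to 1.08, less firmly across sets. The 2 sets stood apart in every genotype, with correlations of the set difference of 0.118 to 0.304 across 12530 genes between genotypes. Xist and the Y-linked Ddx3y read the WT and double libraries as female, the Q215X/+ pair as male, and for HA-NRG1 type III/+ a male in set 0 and a female in set 1, so sex cannot be told apart from genotype in Q215X/+ against WT or in the double against Q215X/+. Markers of myelinating Schwann cells were detected in every group. The set 1 library of Q215X/+ held the highest skeletal muscle marker sum, 902 FPKM for 7 genes, against 4.90 to 76.1 in the other libraries.

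Differences were tested with limma on log2(FPKM + 1) over the 12530 genes whose mean reached 1 FPKM. A gene was called where its p, adjusted over all of them by Benjamini-Hochberg, was under 0.05. Of the 10 receptor genes, 9 passed that filter. Bai3, with a mean of 0.444 FPKM, was fitted without it. A second fit, with the set as block, is given where it changed a call.

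Gpr56 and Gpr126 had the highest levels of the family in this nerve, with means of 18.8 and 18.4 FPKM over the 8 libraries. Gpr124 followed at 14.6 FPKM, Cd97 at 13.6, Eltd1 at 7.51 and Lphn1 at 5.94. Lphn2 at 1.85 FPKM, Bai1 at 1.68, Bai2 at 1.11 and Bai3 at 0.444 were low. The library values of neighbours in this order overlapped, with 3 exceptions. The lowest Cd97 library (11.8 FPKM) lay above the highest Eltd1 library (8.74 FPKM), the lowest Lphn1 library (4.36 FPKM) above the highest Lphn2 library (2.13 FPKM), and the lowest Bai2 library (0.941 FPKM) above the highest Bai3 library (0.609 FPKM). Bai1 varied the most, with a ratio of 4.57 between its highest and lowest library, whereas the ratio was 1.32 to 2.03 for the other 9 genes. Summed over the 10 genes, the level ran from 73.4 FPKM in the set 1 double library to 98.2 in the set 0 WT library, and set 1 was below set 0 in all 4 genotypes.

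**Figure D1:**
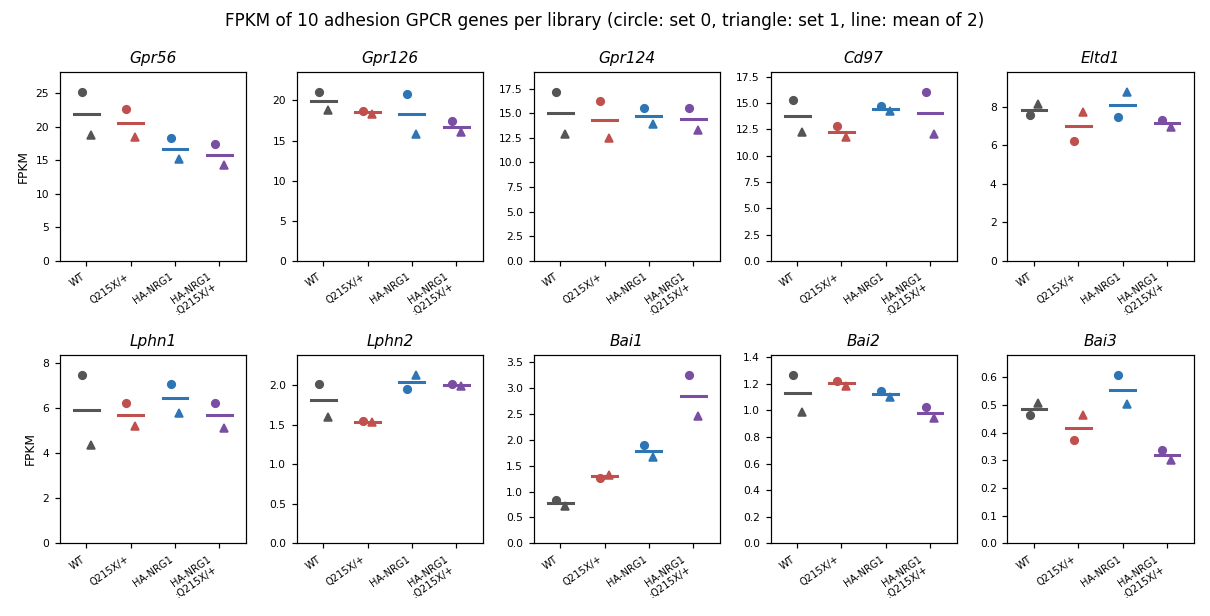
FPKM of the 10 receptor genes (vertical axes, from 0) in the 8 libraries, by genotype, ordered by mean level; circles are set 0, triangles set 1, lines the mean of 2 libraries, and the HA-NRG1 labels stand for HA-NRG1 type III/+. Bai1 climbs from 0.773 FPKM in WT to 2.86 in the double, and the 4 transgene libraries of Gpr56 lie below the 4 others.

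Across the 6 comparisons fitted, the receptor called without the block was Bai1, for the transgene over both backgrounds. For Q215X/+ against WT, 0 of 9 tested receptor genes were called, where 0.00798% of all tested genes were, and 1 of 9 (Bai1) had an unadjusted p under 0.05, as had 2.04% of all. The block also called 0 of 9 there. The transgene on WT (HA-NRG1 type III/+ against WT) gave 0 of 9 without the block (0.0638%) and 2 of 9 with it (2.11%). The double against Q215X/+ gave 0 of 9 without the block (0.0399%) and 2 of 9 with it (1.72%). The double against WT gave 0 of 9 (0.112%) and 2 of 9 (2.39%), and shares WT or double libraries with each of the comparisons before it. In each of those 3 comparisons 1 of 9, Bai1, had an unadjusted p under 0.05 without the block, beside 6.9%, 6.58% and 7.29% of all tested genes. Over both backgrounds the transgene gave 1 of 9 without the block (0.99%) and 2 of 9 with it (7.1%). The 2 receptor genes called with the block were Bai1, higher, and Gpr56, lower, each time. The interaction, which compares the transgene's difference on the 2 backgrounds, called 0 of 9 with either fit (0.00798% for both), and 0 of 9 had an unadjusted p under 0.05 (1.11% of all).

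**Figure D2:**
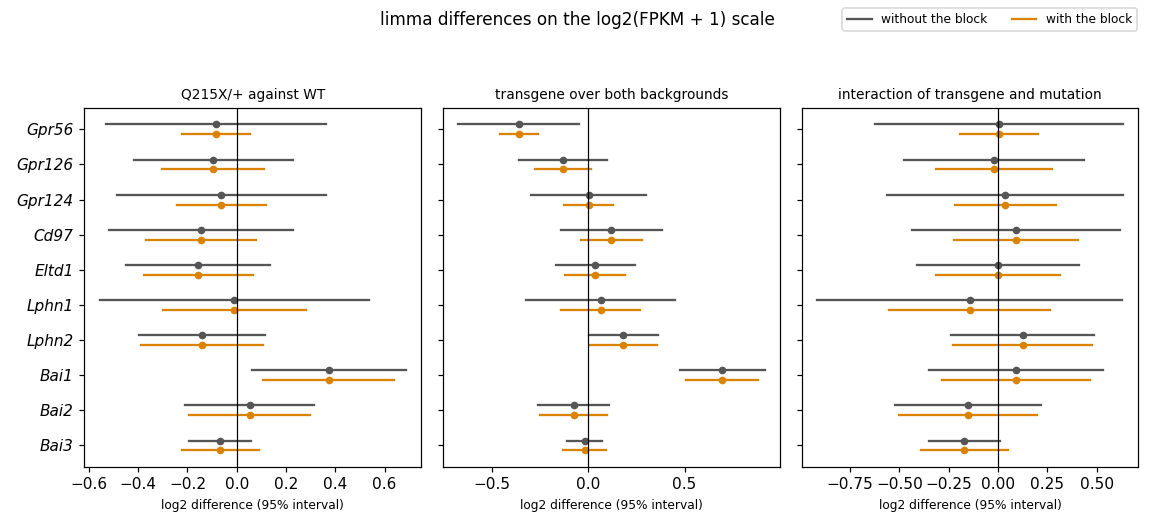
Differences on the log2(FPKM + 1) scale (horizontal axes) for the 10 receptor genes with 95% intervals, from limma without (grey) and with (orange) the set as a block, for the mutation, for the transgene over both backgrounds and for their interaction. For the transgene, Bai1 stands at 0.70 and Gpr56 at −0.36, and the Gpr56 interval is much narrower with the block.

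Gpr126, the Schwann cell receptor that raises cyclic AMP, lies on chromosome 10 at 14402583 to 14545659, minus strand (GRCm38, GENCODE annotation). Its FPKM in sets 0 and 1 was 21.0 and 18.8 in WT, in Q215X/+ at 18.7 and 18.3, in HA-NRG1 type III/+ at 20.8 and 15.9, and in the double at 17.4 and 16.0. Both double libraries were below both Q215X/+ libraries, a separation that 15.2% of all tested genes had. The Q215X/+ libraries lay just below the lower WT library (10.2% of all), and the HA-NRG1 type III/+ pair spread across the other groups. No comparison called Gpr126. The double against WT had a log2 difference of −0.24 (SE 0.13, limma adjusted p = 0.882 without and 0.232 with the block), a mean 15.9% lower. With the block its 95% interval was −0.44 to −0.03 and its unadjusted p 0.0316, where 17.9% of all tested genes were under 0.05. For the transgene over both backgrounds the difference was −0.13, with a 95% interval of −0.36 to 0.10 and an adjusted p of 0.773. With the block the interval was −0.28 to 0.02. In sets 0 and 1 the transgene's difference was −0.01 and −0.23 on WT and −0.10 and −0.18 on Q215X/+. Falls in both sets were seen for 33.3% of all tested genes on WT and 33.2% on Q215X/+. The interval for Q215X/+ against WT was −0.42 to 0.23, around −0.10. A term for sex moved these values, to −0.04 for the transgene (limma adjusted p = 0.943) and to −0.46 for the mutation (SE 0.17, adjusted p = 0.997). With the block as well the mutation gave −0.37 (adjusted p = 0.999). The double against Q215X/+ went from −0.14 to 0.23 with the term for sex, and to 0.13 with the block as well. The interaction went from −0.02 to 0.53, and to 0.39 with the block as well. None of these values was called. Relative to Gpr56 in the same library, Gpr126 stood at 0.825 to 0.997 in the 4 libraries without the transgene. In the 4 with it the ratio was 1.00 to 1.13. These ranges nearly met, and the lower Gpr56 of the transgene libraries, given below, enters the ratio.

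Gpr56, a receptor for collagen III that signals through Gna12 and Gna13, lies on chromosome 8 at 94974751 to 95014217, plus strand. In sets 0 and 1 it was at 25.1 and 18.8 FPKM in WT, in Q215X/+ at 22.7 and 18.4, in HA-NRG1 type III/+ at 18.3 and 15.1, and in the double at 17.4 and 14.2. All 4 transgene libraries were below all 4 others, though the highest of the former (18.3 FPKM) and the lowest of the latter (18.4 FPKM) nearly met. Of all tested genes, 5.2% had such a separation downwards. Within every genotype Gpr56 was lower in set 1, by ratios of 0.749 to 0.826.

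Set by set, the transgene's log2 difference in Gpr56 was −0.43 and −0.29 on WT and −0.37 and −0.35 on Q215X/+. All 4 pairs thus had the same sign. Of all tested genes, 33.3% fell in both sets on WT and 33.2% on Q215X/+. Over both backgrounds Gpr56 fell by 0.36 on the log2 scale with the block (SE 0.04, limma adjusted p = 0.00761). Without the block the same difference had an SE of 0.13 and an adjusted p of 0.361. The block also called Gpr56 in HA-NRG1 type III/+ against WT (−0.36, adjusted p = 0.0435 against 0.84 without it), in the double against Q215X/+ (−0.36, 0.0449 against 0.906) and in the double against WT (−0.44, 0.0252 against 0.691). Mean FPKM was 23.8% lower with the transgene on WT and 23.2% lower on Q215X/+. The interaction was 0.00 (95% interval −0.63 to 0.63 without the block). For the mutation alone the difference was −0.08 (SE 0.18, adjusted p = 1). A term for sex alone moved the mutation to −0.34 (SE 0.32), the double against Q215X/+ to −0.10 and the interaction to 0.39, none of them called. That term rests on the HA-NRG1 type III/+ pair, whose male and female libraries also differ in set. Without the block it therefore takes in the set difference. With the block as well, the same values were −0.02, −0.42 and −0.08. With the block and a term for sex, Gpr56 was called over both backgrounds (−0.38, adjusted p = 0.039) but no longer in HA-NRG1 type III/+ against WT (0.231), the double against Q215X/+ (0.723) or the double against WT (0.0614). With the block, leaving out 1 library in turn kept the call over both backgrounds in 6 of 8 fits. It was lost without the set 0 double library (adjusted p = 0.0669) and without the set 1 double library (0.0569).

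Bai1, a receptor that binds phosphatidylserine on dying cells and acts through Elmo1, Dock1 and Rac1, lies on chromosome 15 at 74516195 to 74589465, plus strand. Its FPKM in sets 0 and 1 was 0.833 and 0.713 in WT, in Q215X/+ at 1.27 and 1.33, in HA-NRG1 type III/+ at 1.90 and 1.66, and in the double at 3.26 and 2.46. The 4 genotypes followed each other with no overlap between neighbours: WT was lowest, then Q215X/+, then the transgene alone, and the double was highest. Of all tested genes, 4.88% had all 4 transgene libraries above all 4 others, and 8.78% had both Q215X/+ libraries above both WT libraries. The share with the full order of 4 genotypes was not counted.

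Mean Bai1 was 2.31 times the WT mean in HA-NRG1 type III/+ and 2.204 times the Q215X/+ mean in the double. Over both backgrounds Bai1 rose by 0.70 on the log2(FPKM + 1) scale (SE 0.09, limma adjusted p = 0.0355 without and 0.00747 with the block). This scale understates a gene near 1 FPKM: with a pseudocount of 0.1 in place of 1 the difference was 1.09 (adjusted p = 0.0324). On single backgrounds the differences were 0.65 on WT (SE 0.13, adjusted p = 0.227 without and 0.0476 with the block) and 0.74 on Q215X/+ (SE 0.13, 0.192 and 0.0407). The interaction was 0.09 (SE 0.18, adjusted p = 1).

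For the mutation, mean Bai1 was 1.68 times WT without the transgene and 1.60 times with it. The log2 difference of Q215X/+ against WT, 0.37 (SE 0.13), had an unadjusted p of 0.0258 and an adjusted p of 1 without and 0.572 with the block. The double had 3.70 times the WT mean, with a log2 difference of 1.11 (SE 0.13, adjusted p = 0.0572 without and 0.0132 with the block), and the libraries of both groups read as female. The call over both backgrounds without the block was lost with a term for sex (0.73, adjusted p = 0.123), with no filter (adjusted p = 0.0696) and without any 1 of the 8 libraries (0.62 to 0.77, adjusted p = 0.0802 to 0.143). With the block and a term for sex Bai1 was called over both backgrounds (0.70, adjusted p = 0.0424) and in the double against WT (0.0386), but not on WT (0.231) or Q215X/+ (0.744) alone. With the block the call over both backgrounds was lost in 1 of 8 fits without a library, without the set 0 double library (adjusted p = 0.0528).

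**Figure D3:**
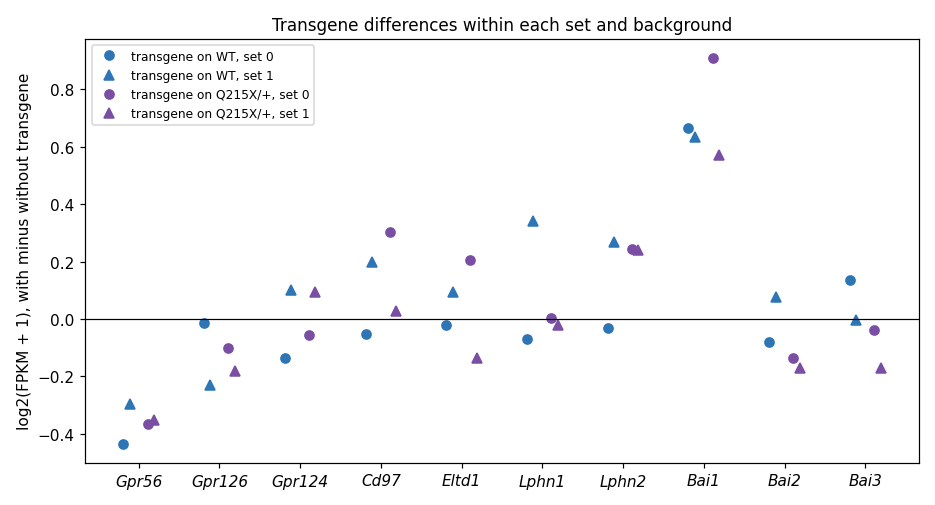
Log2(FPKM + 1) with minus without the transgene (vertical axis) for the 10 receptor genes, within set 0 (circles) and set 1 (triangles), on WT (blue) and on Q215X/+ (purple). The 4 points of Bai1 lie at 0.57 to 0.91 and those of Gpr56 at −0.43 to −0.29, while the points of most other genes fall on both sides of 0.

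Bai2 and Bai3, the other brain angiogenesis inhibitor receptors, did not share the pattern of Bai1. Bai2 was at 1.27 and 0.992 FPKM in sets 0 and 1 of WT, in Q215X/+ at 1.22 and 1.19, in HA-NRG1 type III/+ at 1.15 and 1.10, and in the double at 1.02 and 0.941. WT overlapped every other genotype, while HA-NRG1 type III/+ lay below Q215X/+ and the double below both. Of all tested genes, 15.2% had the double below Q215X/+, and the shares for the other separations were not counted. The transgene's difference over both backgrounds was −0.08 (95% interval −0.26 to 0.11, limma adjusted p = 0.884). As a result of both genes' values, the ratio of Bai1 to Bai2 within a library was 0.657 and 0.719 in WT and 3.19 and 2.61 in the double.

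Bai3 was at 0.464 and 0.508 FPKM in WT, in Q215X/+ at 0.373 and 0.464, in HA-NRG1 type III/+ at 0.609 and 0.503, and in the double at 0.336 and 0.300. The double was below the other 3 genotypes. Of all tested genes, which leave out Bai3, 16.7% had the double below WT and 15.2% had it below Q215X/+. The share below all 3 was not counted. Against WT the log2 difference of the double was −0.17 (SE 0.05, unadjusted p = 0.0173), and the adjusted p of limma without a filter was 0.491. The mean was 34.6% lower.

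Lphn1, Lphn2 and Eltd1 belong to the latrophilin group, whose best known ligands are teneurins and the Flrt proteins, and Eltd1 is known from endothelial cells. Lphn1 was at 7.48 and 4.36 FPKM in WT, in Q215X/+ at 6.22 and 5.22, in HA-NRG1 type III/+ at 7.08 and 5.80, and in the double at 6.23 and 5.13. The 2 WT libraries enclosed all others, so the groups overlapped fully. Its transgene difference over both backgrounds was 0.06 (95% interval −0.32 to 0.45).

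Lphn2 was at 2.02 and 1.60 FPKM in WT, in Q215X/+ at 1.54 and 1.53, in HA-NRG1 type III/+ at 1.95 and 2.13, and in the double at 2.02 and 1.996. Q215X/+ was below the other 3 genotypes. Of all tested genes, 10.2% had Q215X/+ below WT and 14.6% had the double above Q215X/+. The share with Q215X/+ below all 3 was not counted. The transgene's log2 difference over both backgrounds was 0.18 (SE 0.08, unadjusted p = 0.0497), with a limma adjusted p of 0.445 without and 0.204 with the block. Without the block, 11.2% of all tested genes had an unadjusted p under 0.05 in this comparison. On Q215X/+ the mean ratio was 1.30, on WT 1.13, and the interaction was 0.12 (adjusted p = 1).

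Eltd1 was at 7.56 and 8.13 FPKM in WT, in Q215X/+ at 6.21 and 7.72, in HA-NRG1 type III/+ at 7.44 and 8.74, and in the double at 7.33 and 6.94. The double lay below WT and HA-NRG1 type III/+, and the other groups overlapped. Of all tested genes, 16.7% had the double below WT, and the share below HA-NRG1 type III/+ was not counted. The difference of Q215X/+ against WT was −0.16 (95% interval −0.45 to 0.13, limma adjusted p = 1). It was 0.05 with a term for sex, and −0.05 with the block as well. The summed level of 9 endothelial markers was 138 to 183 FPKM in Q215X/+ and 174 to 216 FPKM in the other groups. Its part in the Q215X/+ difference was not tested.

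Cd97, a receptor of leukocytes and other cells that binds Cd55, was at 15.3 and 12.3 FPKM in WT, in Q215X/+ at 12.8 and 11.8, in HA-NRG1 type III/+ at 14.7 and 14.2, and in the double at 16.0 and 12.0. The double, with the highest and the second lowest value, overlapped every other genotype, as did WT, while Q215X/+ lay below HA-NRG1 type III/+. The share of all tested genes with that last separation was not counted. The transgene difference over both backgrounds was 0.12 (95% interval −0.14 to 0.38, limma adjusted p = 0.861). The exons of Cd97 overlap those of Ddx39 on the opposite strand, which was listed at a mean of 7.50 FPKM. The sources used here do not say how strand was handled, so reads in the shared stretch cannot be assigned.

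Gpr124, the partner of Reck in Wnt7 signalling of vessels, was at 17.1 and 12.9 FPKM in WT, in Q215X/+ at 16.2 and 12.4, in HA-NRG1 type III/+ at 15.5 and 13.9, and in the double at 15.6 and 13.4. Set 1 was below set 0 in all 4 genotypes and no genotype stood apart. Its genotype means differed by a ratio of 1.05 at most. The transgene difference was 0.00, with a 95% interval of −0.30 to 0.30. Gpr124 shares exon sequence with Brf2 on the opposite strand, at 5.82 FPKM. Exons of Gpr126, Lphn1 and Lphn2 also overlap annotated genes on the opposite strand that were not matched in the table. Those of Bai1 and Cd97 overlap microRNA genes on the same strand, Gm26117 and Mir1668, which were not matched either.

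The ligands of Gpr126 and Gpr56, collagen IV chains, laminin chains, the prion protein, collagen III and Tgm2, gave 0 calls among 11 tested in any of the 6 comparisons with either fit. Their median transgene difference over both backgrounds was 0.03, beside −0.01 for all 12530 genes. The 6 ligands and partners of Cd97 gave 0 calls, with a median of 0.18. The 7 tested genes of the Gpr124 and Wnt7 list gave 0 calls, with a median of 0.08. Wnt7a and Wnt7b were below the filter.

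C1ql3, a secreted C1q-like ligand of Bai3, was the pathway gene called without the block. In sets 0 and 1 it was at 48.4 and 51.1 FPKM in WT, in Q215X/+ at 61.0 and 53.3, in HA-NRG1 type III/+ at 89.5 and 79.9, and in the double at 92.8 and 84.6. Every transgene library was above every other library, as for 4.88% of all tested genes. C1ql3 rose by 0.69 over both backgrounds (SE 0.08, limma adjusted p = 0.0276 without and 0.0035 with the block), while Bai3 itself was at 0.300 to 0.609 FPKM. Without the block the call was lost with a term for sex (adjusted p = 0.0905) and without any 1 of the 8 libraries (0.64 to 0.74), and with the block it was kept in 8 of 8 such fits.

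Of the 10 tested partners of the Bai receptors, 1 rose and 2 fell with the block over both backgrounds, where 3.42% of all tested genes rose and 3.69% fell. Those that fell were Rtn4r and Rtn4rl2, the Nogo receptor and a relative, which bind Bai1. Rtn4r was at 4.03 and 3.17 FPKM in sets 0 and 1 of WT, in Q215X/+ at 3.64 and 2.67, in HA-NRG1 type III/+ at 2.09 and 1.83, and in the double at 1.91 and 2.28. Its transgene libraries were all below the others, as for 5.2% of all tested genes. Rtn4r fell by 0.53 (SE 0.09 with the block, limma adjusted p = 0.0282, and 0.107 without it). Rtn4rl2 fell by 0.32 (SE 0.05, adjusted p = 0.0214, and 0.224 without the block), from group means of 3.64 and 3.88 FPKM to 2.86 and 2.78 FPKM. Elmo1, Dock1 and Rac1 were not called.

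**Figure D4:**
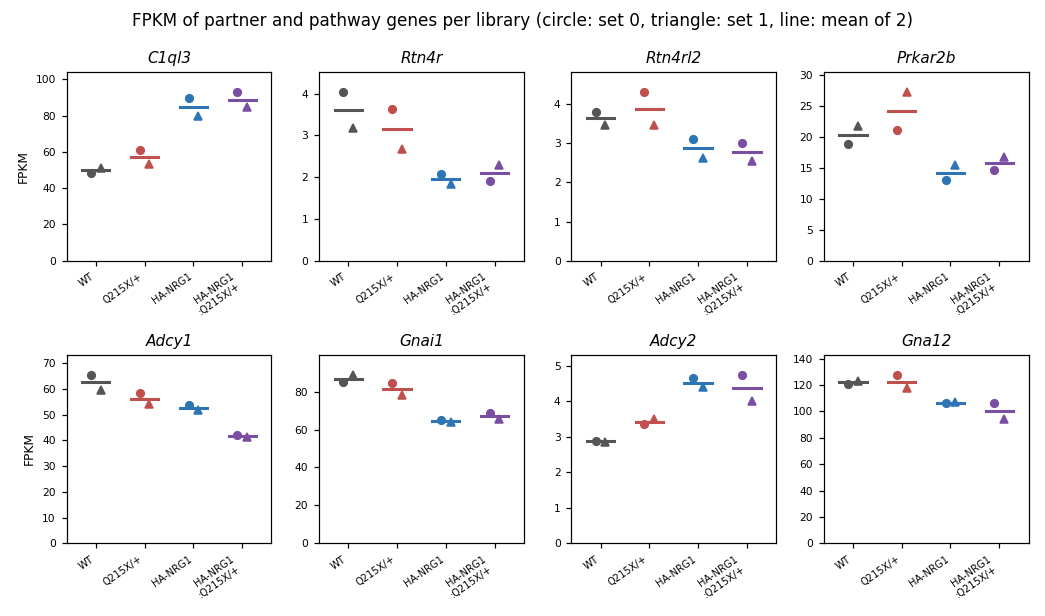
FPKM (vertical axes, from 0) in the 8 libraries by genotype, for 8 genes from the lists of receptor partners and signalling genes. All were called for the transgene over both backgrounds with the block, and of these only C1ql3 without it. Circles are set 0, triangles set 1 and lines the mean of 2 libraries. C1ql3 and Adcy2 are higher in the 4 transgene libraries, and the other 6 genes are lower.

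The route from Gpr126 through cyclic AMP to the myelin factors was covered by 28 genes, all tested. Over both backgrounds 0 of 28 were called without the block, and 1 rose and 4 fell with it, with a median difference of −0.03. Of all tested genes, 0.99% were called without the block, and 3.42% rose and 3.69% fell with it. Prkar2b, a regulatory subunit of protein kinase A, fell by 0.53 (SE 0.04 with the block, limma adjusted p = 0.0036, and 0.0992 without it). It was at 18.8 and 21.7 FPKM in WT and 21.2 and 27.1 in Q215X/+, against 12.99 and 15.4 in HA-NRG1 type III/+ and 14.7 and 16.8 in the double. Transgene libraries lay below the rest, as for 5.2% of all tested genes.

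Adcy1, an adenylyl cyclase that makes cyclic AMP, fell by 0.33 with the block (SE 0.04, limma adjusted p = 0.00761, and 0.0863 without it). Its group means were 62.5 FPKM in WT, with Q215X/+ at 56.2, HA-NRG1 type III/+ at 52.8 and the double at 41.8. Adcy2, another cyclase, moved the other way and rose by 0.40 (SE 0.06, adjusted p = 0.0151, and 0.0661 without the block), from 2.87 and 3.42 FPKM without the transgene to 4.53 and 4.38 FPKM with it. Gnai1, an inhibitory G protein subunit that opposes the cyclases, fell by 0.35 (SE 0.04, adjusted p = 0.00944, and 0.0728 without the block), from 86.9 and 81.2 FPKM to 64.4 and 67.1 FPKM. The fourth that fell was Pou3f1, a transcription factor of promyelinating Schwann cells, named here after its values were seen (−0.30, adjusted p = 0.0298 with and 0.774 without the block).

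In the list for signalling downstream of Gpr56, 1 of 11 tested genes was called, Gna12, a G protein subunit that couples to the receptor. It fell by 0.24 with the block (SE 0.05, limma adjusted p = 0.0365, and 0.242 without it). Group means were 122 and 123 FPKM in WT and Q215X/+, and 107 and 100.5 FPKM in HA-NRG1 type III/+ and the double. The median of the list was −0.04, and 7.1% of all tested genes were called in the same fit, so 1 of 11 is near the background. Among 5 tested latrophilin partners, Tenm3, a teneurin, rose by 0.20 with the block (SE 0.04, adjusted p = 0.0302, and 0.636 without it), the 1 call of 5 beside the same 7.1%. With the block, leaving out 1 library in turn kept Prkar2b called in 8 of 8 fits, Adcy1 in 6, Gnai1 in 5, Adcy2 and Rtn4r in 2, Rtn4rl2 in 1, and Gna12, Tenm3 and Pou3f1 in 0. Losing 1 library also lowers the residual degrees of freedom of that fit from 3 to 2.

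Other adhesion receptors outside the 10 were present as well. The table listed 19 further genes of the family, of which 7 passed the filter: Gpr125, Celsr2, Gpr133, Emr1, Gpr116, Lphn3 and Celsr1. None of the 7 was called in any of the 6 comparisons by limma with or without the block. Their median transgene difference was −0.01.

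The genes whose log2(FPKM + 1) followed each receptor most closely over the 8 libraries were found by Pearson's r among 12529 others, as a description in which libraries share genotype and set. For Bai1 these were Mcph1 (r = 0.98), Ephb1 (0.98) and Leprel1 (0.97). Ephb1, an ephrin receptor, had group means of 2.80 FPKM in WT, with Q215X/+ at 4.998, HA-NRG1 type III/+ at 6.80 and the double at 10.2. Its order of genotypes is that of Bai1, which is not independent of its choice by correlation. Mcph1 ran from 1.38 FPKM in WT to 1.72 in the double. Its transgene difference over both backgrounds was 0.13 (limma adjusted p = 0.569 without the block). For Gpr56 they were Josd1, Cpox and Zfp592 (all 0.98), and for Gpr126 Nek6 (0.96), Lgr5 (0.95) and Ado (0.95).

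Several marker sums moved with the transgene beside Bai1, Gpr56 and the partner genes. The summed level of 7 fibroblast markers was 4463 to 4824 FPKM in the 4 libraries without the transgene and 5197 to 5531 in the 4 with it. A few abundant genes carry that sum: 1 of 7, Lum, rose with the block (0.56, limma adjusted p = 0.00462), 5 of 7 had a difference above 0 over both backgrounds, and 3 of 7 had one in the double against Q215X/+. Axonal and neuronal markers, 7 genes, summed to 19.8 to 29.5 FPKM without and 12.0 to 16.8 with the transgene, and 4 of the 6 tested fell with the block. Markers of non-myelinating Schwann cells, 6 genes, summed to 152 to 169 FPKM without and 126 to 136 with the transgene. With the block, 1 of the 6 rose and 3 fell. Red blood cell markers, 5 genes, summed to 239 to 244 FPKM in WT, 599 to 1279 in Q215X/+ and 49.1 to 178 with the transgene. Of these, 4 of 5 fell with the block and 1 of 5 without it. Macrophage markers, 9 genes, overlapped (353 to 381 FPKM without, 365 to 463 with), but 9 of 9 had a difference above 0 over both backgrounds, and 1 of 9, Cx3cr1, rose with the block (0.78, limma adjusted p = 0.00531). Of all tested genes, 3.42% rose and 3.69% fell with the block over both backgrounds, and 0.99% were called without it. No marker of these lists was at 0 in both libraries of a group. Their part in the results was not tested, and in whole nerve fewer cells of a type and less RNA per cell cannot be told apart.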

How the data were processed

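The authors deposited 1 FPKM value per gene and library. The submitters' processing notes name mm10, TopHat2 2.0.9 and Cufflinks 2.2.0, without roles, and the sources used here give neither the annotation nor the strand handling. Columns were matched to genotypes by name. The stem for the transgene was assigned because no other genotype was left for it. No label ties the endings 0 and 1 to a replicate number. They were treated as pairs from the data, since the set difference correlated by 0.118 to 0.304 in all 6 pairs of genotypes.

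In R 4.3.3, limma 3.58.1 with an eBayes trend fitted 4 group means to log2(FPKM + 1) over 8 libraries (4 residual degrees of freedom, 3 with the block) for the 12530 genes whose mean reached 1 FPKM. The scripts were tested on simulated data. Alternatives were another pseudocount, other filters, median ratio scaling, the block, a term for sex, no trend and each library left out. The block with a term for sex, and with a library left out, were added after seeing the data.

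The receptors and the gene lists were chosen with earlier results of these data known. Named genes are all 10 receptors, up to 3 called genes of each list and comparison (smallest p first), and the 3 genes most correlated with Gpr126 and each called receptor. Coordinates are from GENCODE on GRCm38. Some genes, and the sums that hold them, are not reported here.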

Additional observations from a re-analysis of the deposited data

How the results depend on the processing

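Over 1320 values of single receptor genes under the alternatives, 139 changed sign, none of them among called values, and the 240 values of pathway genes kept their sign. For the transgene over both backgrounds, called receptors numbered 1 without the block, 2 with the replicate block, 2 with the block and a term for sex, and 0 with no filter or with a term for sex alone. That term rests on the HA-NRG1 type III/+ pair, since the other genotypes each hold 1 sex. The libraries of that pair also differ in set, so without the block the term takes in the set difference. Alone, it moved the interaction from 0.09 to 0.28 for Bai1 and from 0.12 to 0.00 for Lphn2. It moved the transgene's difference in Lphn1 from 0.06 to 0.13. With the block as well these values were 0.10, −0.12 and 0.03, and none of them was called. With 1 library left out the count was 0 without the block, and 0 to 2 with it. HA-NRG1 type III/+ against WT and the double against Q215X/+ went from 0 called receptors to 2 with the replicate block, and the former to 0 to 1 with the block and 1 library left out. The double against WT went from 0 to 2 with the block, 1 with no eBayes trend, 1 with the block and a term for sex, and 0 to 2 with the block and 1 library left out.

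Counts over all genes, without the block, were 1, 8, 5, 14, 124 and 1 for Q215X/+ against WT, HA-NRG1 type III/+ against WT, the double against Q215X/+, the double against WT, the transgene over both backgrounds and the interaction. The replicate block gave 265, 216, 299 and 890 for the second to the fifth of these. No filter gave 22 for the first, 31 for the second, 3 for the third, 49 for the fourth and 21 for the sixth. A term for sex gave 8 for the first, 9 for the third, 22 for the fifth and 9 for the sixth. With 1 library left out the counts ran from 1 to 15, 1 to 10, 1 to 17, 4 to 17, 11 to 42 and 3 to 11, in the same order. Median ratio scaling moved no all-gene median by more than 0.1 (log2). FPKM holds no counts, and with 2 libraries a group a missed call does not show that a receptor was alike. The cause of these shifts was not tested.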
